A study of Mus musculus with 18 samples.

Results

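The 10 genes described here encode the growth-controlling kinase mTOR, its partner in mTOR complex 1 (mTORC1), the proteins that hold that complex back, and one protein it acts on. They were chosen by name, as all probes whose gene symbol in the platform annotation was Mtor, Rptor, Ddit4, Sesn1, Sesn2, Sesn3, Deptor, Tsc1, Tsc2 or Eif4ebp1. These genes had 28 of the 45281 probes of the array and made up 10 of the 19057 genes that the annotation names. RNA came from C2C12 myotubes, multinucleate muscle cells obtained by differentiating C2C12, an established mouse myoblast line, so all cultures stem from 1 line. The groups were dexamethasone (Dex, a synthetic glucocorticoid) at 1 uM for 6 h (n = 4), ethanol vehicle at 0.01% of the medium volume for 6 h (n = 4), Dex at 1 uM for 24 h (n = 5) and ethanol at 0.01% for 24 h (n = 5). All 4 groups were kept in medium with 2% horse serum. Per its title, the series asks which genes the glucocorticoid receptor, the transcription factor activated by Dex, targets.

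mTORC1 joins the kinase mTOR to the scaffold raptor and promotes protein synthesis and muscle growth when amino acids and growth factors are plentiful. The GTPase Rheb switches it on at the lysosome, the TSC complex switches Rheb off, REDD1 (the product of Ddit4) acts through the TSC complex, sestrins relay a shortage of leucine, and DEPTOR binds mTOR itself. Active mTORC1 phosphorylates the translation repressor 4E-BP1, the product of Eif4ebp1. Glucocorticoids are known to lower protein synthesis in skeletal muscle, and Ddit4 is a known glucocorticoid-induced gene there.

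Values are linear probe intensities, and a log2 fold change is log2 of Dex over ethanol from limma, given with its standard error (SE). A probe was called at an adjusted p under 0.05, adjusted over all 45281 probes. Medians of the 8 arrays of 6 h ran from 99.8 to 100.4 and those of the 10 arrays of 24 h from 85.2 to 86.8, so intensities were compared within a time only. No label says that replicates came from separate cultures, the design text speaks of triplicates where the labels number up to 4 or 5 samples, and p-values therefore reflect how much these samples vary, in part perhaps for technical reasons. Within groups, 1126 bright probes varied in fewer directions than the arrays allow, since 1 of 6 directions at 6 h and 3 of 8 at 24 h each held under 0.01% of the spread. Fitting these directions as covariates left every estimate as it was and lowered the residual degrees of freedom to 10, against 14 without them. A p "with covariates" is given below where it changes a call. The glucocorticoid-responsive gene Fkbp5 rose by 3.93 at 6 h and 3.40 at 24 h on the log2 scale, and all 9 myotube markers measured read at least 2 times the array median.

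Sequences are shown for Ddit4 and Sesn1, the members with the largest rises. They are promoter windows from RefSeq on GRCm38.p6, each 250 bases before to 50 bases after an annotated start, 5′ to 3′ on the gene's strand. Capitals mark CCAAT boxes (CCAAT or its reverse complement ATTGG) and, in the first Sesn1 window, also the FoxO motif TGTTTAC. The Ddit4 window is chr10:59951721-59952020 on the minus strand, and the Sesn1 windows are chr10:41810324-41810623 and chr10:41887189-41887488 on the plus strand.
Ddit4: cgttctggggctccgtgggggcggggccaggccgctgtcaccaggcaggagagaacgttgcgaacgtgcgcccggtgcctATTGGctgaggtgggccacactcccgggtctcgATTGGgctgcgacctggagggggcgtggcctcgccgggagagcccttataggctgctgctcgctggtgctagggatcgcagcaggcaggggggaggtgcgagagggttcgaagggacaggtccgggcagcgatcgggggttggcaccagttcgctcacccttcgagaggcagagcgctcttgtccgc
Sesn1, first window: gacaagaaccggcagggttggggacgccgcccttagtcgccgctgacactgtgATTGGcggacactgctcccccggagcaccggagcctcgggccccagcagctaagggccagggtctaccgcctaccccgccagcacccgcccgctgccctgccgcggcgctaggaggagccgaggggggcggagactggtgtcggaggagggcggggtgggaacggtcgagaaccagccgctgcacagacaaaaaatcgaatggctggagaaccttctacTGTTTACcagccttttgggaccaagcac
Sesn1, second window: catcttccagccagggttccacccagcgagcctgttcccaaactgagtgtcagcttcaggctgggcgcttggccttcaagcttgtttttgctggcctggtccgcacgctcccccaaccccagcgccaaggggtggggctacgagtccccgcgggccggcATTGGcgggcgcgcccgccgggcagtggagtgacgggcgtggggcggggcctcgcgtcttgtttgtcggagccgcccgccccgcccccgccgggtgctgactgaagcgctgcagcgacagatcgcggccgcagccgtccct
The tables held 9 windows for 8 of the 10 genes, and Deptor and Eif4ebp1 had no entry. CCAAT was found on either strand in 6 of the 9 windows and in 37.4% of all 32851 windows. TGTTTAC (or GTAAACA), which FoxO factors bind, was found in 1 of the 9 and in 3.65% of all. The receptor hexamer AGAACA (or TGTTCT) was found in 19% of all windows, the E-box CACGTG in 7.15% and the ATF4 and C/EBP motif TGATGCAA (or TTGCATCA) in 0.895%, and none of these letters occurred in the 9 windows. These matches describe the letters of the windows and show no binding.

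After 6 h with Dex, 4 of the 10 genes rose by their brightest probe, namely Ddit4, Sesn1, Deptor and Mtor. After 24 h, Ddit4, Sesn1 and Deptor rose while Sesn2 and Sesn3 fell. These falls were called on the brightest probe only, which read under 2 times the array median. They were not called under every alternative processing. Counted by probe, 7 of 28 were higher at 6 h, where 2.98% of all probes were called higher, and 4 of 10 genes were higher, where 4.31% of all genes were. On the lower side limma called 0 of the 28 member probes at 6 h, where 3.28% of all probes and 4.04% of all genes were called lower, and 4 member probes were lower at an unadjusted p under 0.05. At 24 h, 6 of 28 probes were higher and 2 lower, where 6.43% and 6.22% of all probes were called in those directions. By gene, 3 of 10 were higher and 2 lower, where 8.05% and 7.73% of all genes were. With covariates 7 member probes were called at 6 h and 8 at 24 h, where 3.04% and 6.28% of all probes were. The genes were chosen with earlier results of these data known, so these shares describe the members and test no enrichment.

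The median log2 fold change over the 10 genes was 0.23 at 6 h and 0.03 at 24 h, against medians over all 19057 genes of 0.003 and -6.27e-05. Dex and ethanol arrays did not overlap for 9 of the 28 probes at 6 h, 8 of them higher and Sesn2 ILMN_1229465 lower, where 9.24% of all probes did not overlap in either direction. At 24 h this held for 7 of 28 probes, 6 of them higher and Sesn2 ILMN_2948945 lower, where it held for 13.7% of all probes. Of the 28 probes, 17 read under 2 times the array median in every group, among them every probe of Sesn2, Sesn3 and Tsc1. Background that remains in such dim values understates their fold changes.

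**Figure D1:**
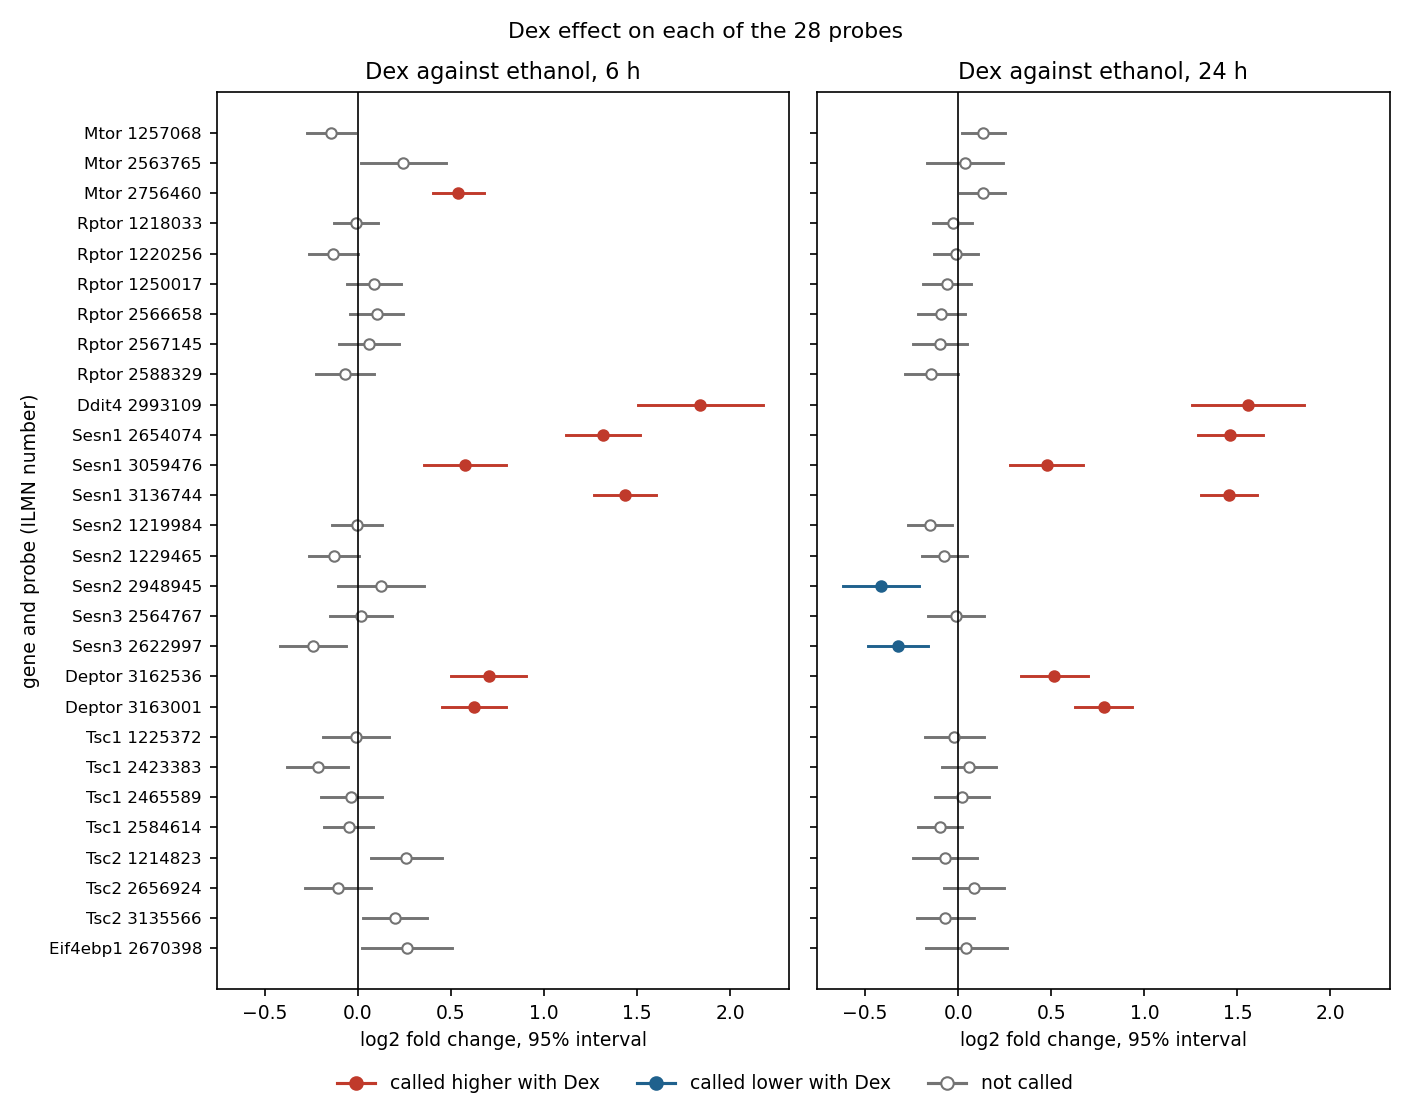
Log2 fold change of Dex over ethanol for each of the 28 probes at 6 h and at 24 h, with 95% intervals from limma. The probes of Ddit4, Sesn1 and Deptor lie right of 0 at both times, and 1 Mtor probe does so clearly at 6 h. No probe of Rptor or Tsc1 was called, though all lie left of 0 for Tsc1 at 6 h and for Rptor at 24 h.

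Ddit4, the inhibitor that acts through the TSC complex, had the largest rise among the 10 genes at both times. Its single probe (ILMN_2993109) read 2337, 2042, 1729.9 and 1320.4 with Dex and 534, 585, 402 and 528 with ethanol at 6 h. Every Dex array exceeded every ethanol array. The means were 1857 ± 435 with Dex and 512 ± 77.9 with ethanol (SD, n = 4 each), a 3.58-fold difference (log2 fold change 1.84, SE 0.16, limma adjusted p = 2.489e-08). At 24 h the probe read 1280.1, 2029, 1585, 1209 and 1245 with Dex and 511, 392, 440.2, 609 and 523 with ethanol, again without overlap. The means were 1470 ± 347 with Dex and 495 ± 83.3 with ethanol (SD, n = 5 each), with a rise of 1.56 on the log2 scale (SE 0.15, limma adjusted p = 4.467e-08). By size of rise Ddit4 stood at rank 12 of 19057 genes at 6 h and at rank 31 at 24 h. Its Dex effect at 24 h minus that at 6 h was -0.28 (95% interval -0.74 to 0.17, limma adjusted p = 0.5187), so a change of effect between the times was not called.

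Sesn1, one of the sestrins that restrain mTORC1 through the GATOR complexes, rose on all 3 of its probes at both times. The brightest probe (ILMN_2654074) read 9030.1, 9746, 8943 and 7413 with Dex and 4161, 3664, 2979 and 3337 with ethanol at 6 h. The groups were far apart, the lowest Dex array lying well above the highest ethanol array. The means were 8783 ± 982 with Dex and 3535 ± 502 with ethanol (SD, n = 4 each), with a rise of 1.32 on the log2 scale (SE 0.10, limma adjusted p = 5.9e-10). At 24 h the same probe read 3753, 4507, 3646, 3846 and 3926 with Dex and 1447, 1294, 1489, 1301 and 1613 with ethanol, and no array crossed to the other group. The rise was 1.46 on the log2 scale (SE 0.09, limma adjusted p = 7.489e-12), with means of 3936 ± 336 for Dex and 1429 ± 134 for ethanol (SD, n = 5 each).

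A second bright Sesn1 probe (ILMN_3136744) averaged 4988 ± 444 with Dex and 1845 ± 166 with ethanol at 6 h (SD, n = 4 each), and 2571 ± 221 with Dex and 938 ± 80.0 with ethanol at 24 h (SD, n = 5 each). Its log2 fold changes were 1.43 (SE 0.08) and 1.45 (SE 0.07). The remaining dim probe (ILMN_3059476) rose by 0.57 at 6 h (limma adjusted p = 0.0009828) and 0.48 at 24 h (limma adjusted p = 0.00142) on the log2 scale. With normexp background correction its rises were 0.92 and 0.75. The effect of Dex on the brightest Sesn1 probe at 24 h minus that at 6 h was 0.15 (95% interval -0.12 to 0.41, limma adjusted p = 0.5773).

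Deptor, which encodes the inhibitor that binds mTOR directly, rose on both of its probes at both times. Its brightest probe (ILMN_3163001) read 4641, 4934, 6029.5 and 5608 with Dex and 3694, 2959, 3681 and 3399 with ethanol at 6 h. All Dex arrays lay above all ethanol arrays. The means were 5303 ± 631 with Dex and 3433 ± 344 with ethanol (SD, n = 4 each), a 1.54-fold difference (log2 fold change 0.63, SE 0.08, limma adjusted p = 1.621e-05). At 24 h it read 3913, 3453, 3439, 3965 and 3667 with Dex and 2026, 2206, 2362, 1969 and 2172 with ethanol. The Dex arrays kept close together there and the groups stayed apart, with a 1.72-fold difference (log2 fold change 0.78, SE 0.07, limma adjusted p = 5.451e-08). The dimmer Deptor probe (ILMN_3162536) averaged 454 ± 53.5 with Dex and 281 ± 51.9 with ethanol at 6 h (SD, n = 4 each), giving a log2 difference of 0.70. At 24 h it averaged 307 ± 9.78 with Dex and 215 ± 15.9 with ethanol (SD, n = 5 each), giving a log2 difference of 0.52.

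**Figure D2:**
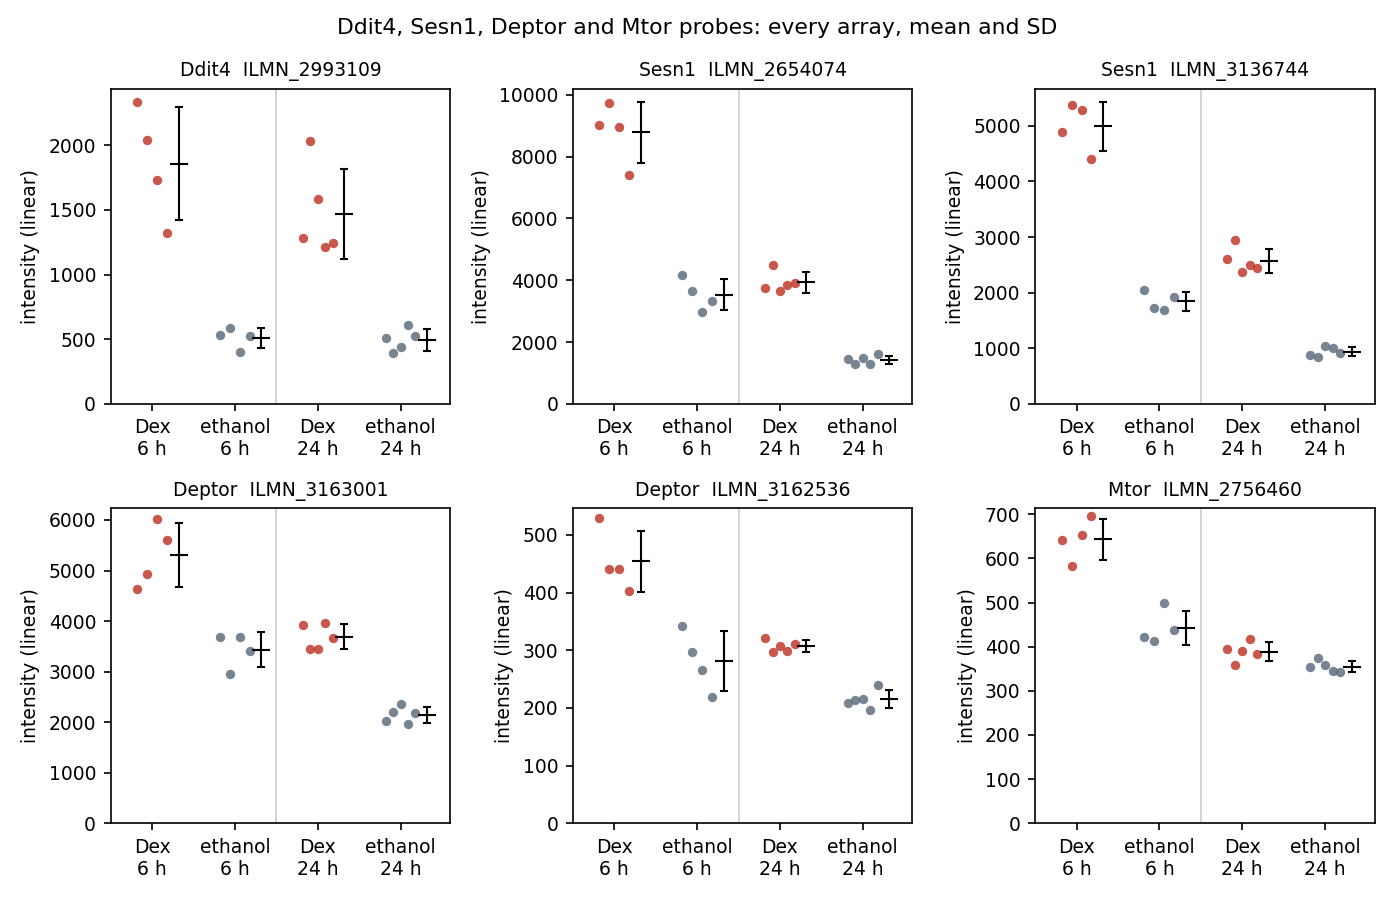
Linear intensity of 6 probes of Ddit4, Sesn1, Deptor and Mtor, with a point for each array and bars for the mean ± SD of a group (n = 4 at 6 h and n = 5 at 24 h), Dex left of ethanol. Ddit4, Sesn1 and Deptor show no overlap between Dex and ethanol at either time, whereas the Mtor probe is apart at 6 h and its groups come together at 24 h.

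Mtor, the kinase gene, rose at 6 h on its brightest probe. That probe (ILMN_2756460) read 641, 582, 653 and 696 with Dex and 422, 414, 498 and 438 with ethanol. The groups did not overlap, and the means of 643 ± 47.1 with Dex and 443 ± 38.4 with ethanol (SD, n = 4 each) differed 1.45-fold (log2 fold change 0.54, SE 0.07, limma adjusted p = 5.121e-06). At 24 h it read 394, 359, 389.5, 418 and 383 with Dex and 353, 375, 358, 344 and 344 with ethanol. The groups overlapped there, and the log2 fold change of 0.13 (95% interval 0.01 to 0.25, limma adjusted p = 0.1548) was not called.

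The Dex effect on this Mtor probe at 24 h minus that at 6 h was -0.41 (SE 0.09, limma adjusted p = 0.01045), and the adjusted p was 0.07116 with covariates and 0.05393 after normexp correction. Mtor probes disagreed. A second (ILMN_2563765, designed on a GenBank cDNA) averaged 573 ± 81.8 with Dex and 486 ± 84.6 with ethanol at 6 h (SD, n = 4 each), giving a log2 difference of 0.24 (limma adjusted p = 0.2181), and had 0.04 at 24 h. The remaining dim probe (ILMN_1257068) had -0.15 at 6 h (limma adjusted p = 0.1912) and 0.13 at 24 h (limma adjusted p = 0.1215). With array weights its 24 h value of 0.13 was called (limma adjusted p = 0.04257), and after normexp correction so was its difference between the times, at 0.77 (limma adjusted p = 0.04976), opposite in sign to that of the brightest probe. The mean of the 3 probes gave a log2 fold change of 0.21 at 6 h (limma adjusted p = 0.002381) and -0.11 for the difference between the times (limma adjusted p = 0.2629).

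Rptor, which encodes the scaffold raptor, was bright on 1 of its 6 probes and passed the test on none. The bright probe (ILMN_1250017) averaged 3431 ± 201 with Dex and 3230 ± 230 with ethanol at 6 h (SD, n = 4 each), giving a log2 difference of 0.09 (95% interval -0.06 to 0.23, limma adjusted p = 0.5493). At 24 h it averaged 1896 ± 132 with Dex and 1977 ± 152 with ethanol (SD, n = 5 each), giving a log2 difference of -0.06 (95% interval -0.19 to 0.07, limma adjusted p = 0.5907). The groups overlapped at both times. The other 5 Rptor probes were dim, with log2 fold changes from -0.13 to 0.10 at 6 h and from -0.14 to -0.01 at 24 h.

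Tsc2, which encodes the GTPase-activating subunit that switches Rheb off, read somewhat higher with Dex at 6 h on both bright probes without passing the test. The first (ILMN_3135566) read 4047, 3749, 3533 and 3103 with Dex and 3416, 3406, 2772 and 2972 with ethanol. The groups overlapped, and the log2 fold change was 0.20 (95% interval 0.03 to 0.37, limma adjusted p = 0.1751). The second (ILMN_1214823) had 0.26 (95% interval 0.07 to 0.45, limma adjusted p = 0.09869), and it was called without ethanol array 1 at 6 h (0.35, limma adjusted p = 0.01449) or without Dex array 4 at 6 h (0.33, limma adjusted p = 0.02954). A model with added terms for the replicate numbers called this probe at 6 h (0.26, limma adjusted p = 0.03621). However, no label says that same-numbered Dex and ethanol samples belong together, and their correlations at 6 h ran only from 0.00456 to 0.297. At 24 h both bright probes had -0.07, and the remaining dim probe had -0.11 at 6 h and 0.08 at 24 h.

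Tsc1, whose product hamartin stabilises the Tsc2 protein, was dim on all 4 probes, and none was called. Its brightest probe (ILMN_2465589) averaged 132 ± 13.2 with Dex and 135 ± 12.8 with ethanol at 6 h (SD, n = 4 each), and 97.7 ± 7.12 with Dex and 96.4 ± 6.99 with ethanol at 24 h (SD, n = 5 each). The log2 fold changes of the 4 probes ran from -0.22 to -0.01 at 6 h and from -0.10 to 0.06 at 24 h. At this brightness a change in Tsc1 RNA may not be detectable.

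Sesn2 and Sesn3, the other sestrin genes, were not called higher at either time. The brightest Sesn2 probe (ILMN_2948945), which lay near the array median, read 103, 114, 113 and 139 with Dex and 109, 95.3, 127 and 98.1 with ethanol at 6 h. The groups overlapped, with a log2 fold change of 0.13 (limma adjusted p = 0.5993). At 24 h it read 85.7, 109, 102, 106 and 109 with Dex and 176, 140.0, 117, 126 and 126 with ethanol. Every Dex array lay below every ethanol array, and the log2 fold change was -0.41 (SE 0.10, limma adjusted p = 0.006776).

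The lowest Dex value and the highest ethanol value of Sesn2 at 24 h were both from arrays numbered 1. Without these 2 arrays the log2 fold change was -0.26 (limma adjusted p = 0.06623), and it was -0.68 after normexp correction and -0.21 for the mean of the 3 probes. The other 2 Sesn2 probes had -0.15 (limma adjusted p = 0.0896) and -0.07 (limma adjusted p = 0.4509) at 24 h. The first of them was called without ethanol array 5 (-0.18, limma adjusted p = 0.04847), and array weights called both, at -0.19 (limma adjusted p = 0.003359) and -0.15 (limma adjusted p = 0.02745). The Dex effect on the brightest Sesn2 probe at 24 h minus that at 6 h was -0.54 (SE 0.15, limma adjusted p = 0.04323), and the adjusted p was 0.1185 with covariates. That difference was also not called without any 1 of ethanol arrays 1, 2 and 4 or Dex arrays 2, 3 and 4 at 6 h, or of ethanol arrays 1 and 2 or Dex arrays 1, 3 and 4 at 24 h (limma adjusted p from 0.05009 to 0.08389). Over the 28 probes, this and Mtor ILMN_2756460 were the 2 probes called for a difference between the times, where 3.70% of all probes were called, and with covariates limma called 0 (6 at an unadjusted p under 0.05).

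Sesn3, like Sesn2 dim throughout, read 99.9, 87.5, 87.5, 84.9 and 82.9 with Dex and 95, 103, 122, 115 and 120.0 with ethanol on its brightest probe (ILMN_2622997) at 24 h. The groups overlapped through Dex array 1, and the log2 fold change was -0.32 (SE 0.08, limma adjusted p = 0.00625). At 6 h it averaged 131 ± 7.82 with Dex and 156 ± 19.1 with ethanol (SD, n = 4 each), giving a log2 difference of -0.24 (limma adjusted p = 0.09754) that was called without ethanol array 4 (-0.31, limma adjusted p = 0.0359). The second probe had 0.02 at 6 h and -0.01 at 24 h. For the mean of both probes the 24 h value was -0.17 (limma adjusted p = 0.08809), and after normexp correction the brightest probe had -0.60.

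Eif4ebp1, the gene of the repressor 4E-BP1 that mTORC1 phosphorylates, was not called at either time. Its probe (ILMN_2670398) read 9460.5, 9338, 7912 and 8119 with Dex and 7598, 7569.6, 7031 and 6752 with ethanol at 6 h. Every Dex array lay above every ethanol array, yet the log2 fold change of 0.26 (95% interval 0.02 to 0.51, limma adjusted p = 0.2082) missed the threshold. At 24 h it read 5183, 7684, 7172, 7266 and 7598 with Dex and 8753, 7025, 5577, 6729.5 and 5867 with ethanol. The groups overlapped widely, with Dex array 1 the lowest and ethanol array 1 the highest of the 10 arrays, and the log2 fold change was 0.04 (95% interval -0.17 to 0.26, limma adjusted p = 0.8324). Without these 2 arrays it was 0.24 (limma adjusted p = 0.04418) at 24 h, and the 6 h value, unaltered at 0.26, had a limma adjusted p of 0.04069. Leaving out the lowest Dex and the highest ethanol array must raise the 24 h value. The groups share their estimate of the spread, so the SE at 6 h fell too, from 0.12 to 0.08. Both calls thus rest on the choice of arrays and were not taken as a rise.

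**Figure D3:**
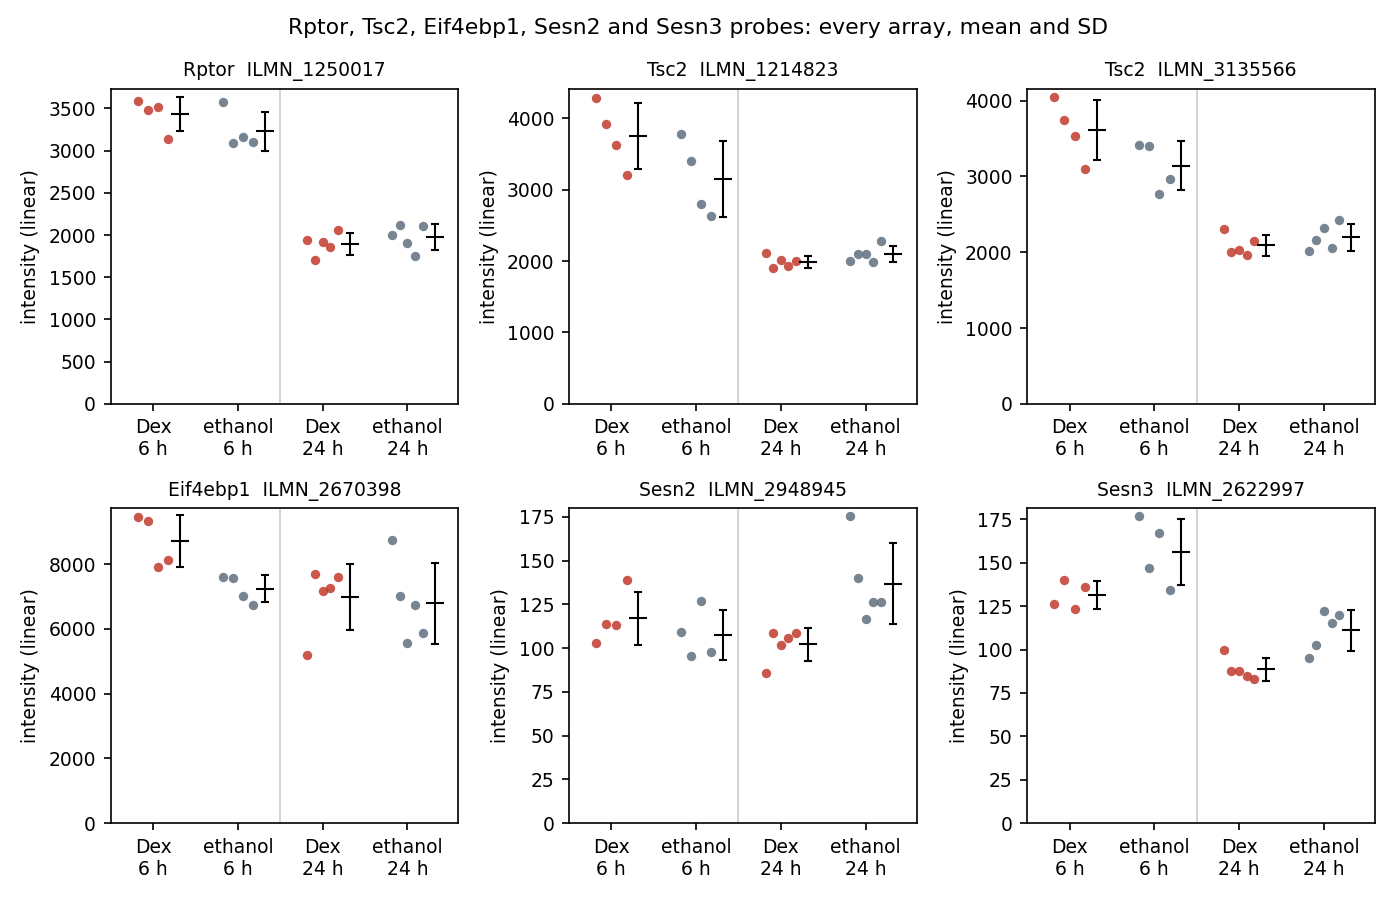
Linear intensity of probes of Rptor, Tsc2, Eif4ebp1, Sesn2 and Sesn3, drawn as a point for each array with the mean ± SD of each group, Dex left of ethanol. Dex and ethanol arrays overlap for Rptor and Tsc2 at both times, are apart for Eif4ebp1 at 6 h only, and are apart with Dex lower for Sesn2 at 24 h.

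Eif4ebp1 and Sesn2 are known targets of ATF4, the transcription factor of the amino acid response, so both were set beside a list of 18 ATF4-linked genes that holds neither. Of the 17 measured, 2 were higher at 6 h, and 2 were higher and 13 lower at 24 h, with median log2 fold changes of -0.03 and -0.65. Of all genes, 4.31% were called higher at 6 h, and 8.05% higher and 7.73% lower at 24 h. At 24 h Chac1, which degrades glutathione, fell by 1.41 on the log2 scale and the pseudokinase gene Trib3 by 1.79. Vldlr, a lipoprotein receptor gene, and Cebpb, a transcription factor gene, rose by 1.20 and 0.64. The summed intensity of the list ran from 19239 to 30934 over the Dex arrays and from 29945 to 54321 over the ethanol arrays at 24 h. Its mean log2 intensity was lowest in Dex array 1 (8.82) and highest in ethanol array 1 (10.26), the same arrays that held the extremes of Eif4ebp1 and Sesn2. The part of these arrays' ATF4-linked levels in the values of Eif4ebp1 and Sesn2 was not tested. Ddit4, also a member, rose by 1.56 at 24 h, where the list had a median of -0.65. Its lowest Dex value (1209) and its highest ethanol value (609) at 24 h came from arrays numbered 4.

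**Figure D4:**
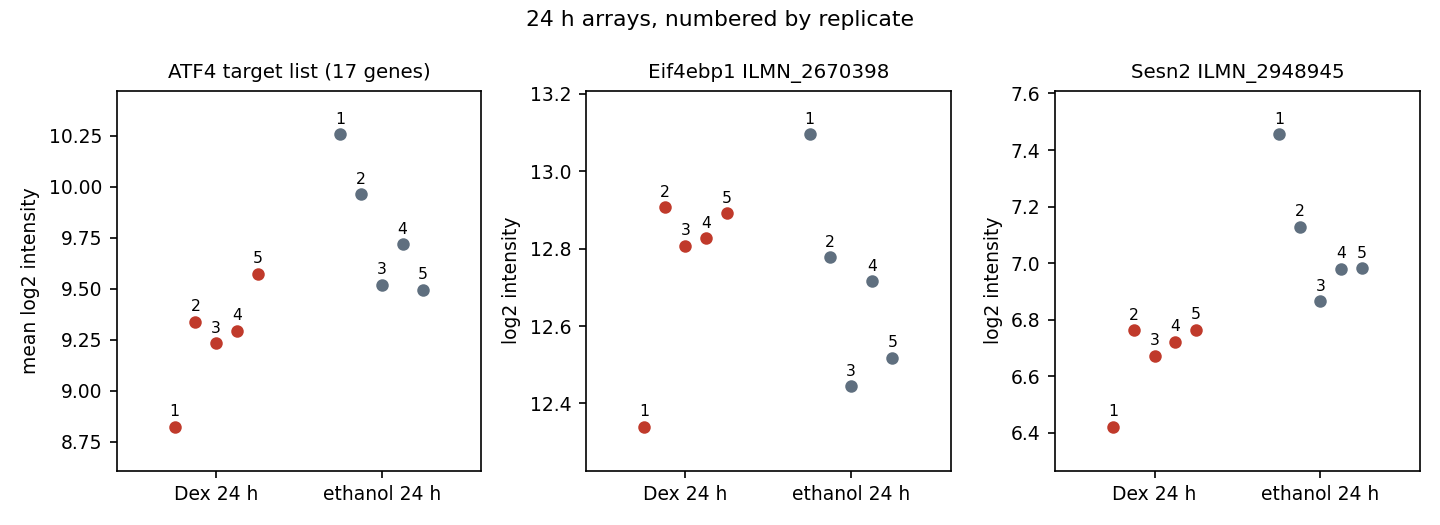
The 10 arrays of 24 h, numbered by replicate, as points in separate panels, Dex left of ethanol and in separate colours. The panels show the mean log2 intensity of the 17 ATF4-linked genes, the log2 intensity of Eif4ebp1 and that of Sesn2. In every panel Dex array 1 is the lowest and ethanol array 1 the highest of the 10 arrays.

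Other genes of the pathway were counted in lists. Over all genes, 4.31% were called higher and 4.04% lower at 6 h, and 8.05% higher and 7.73% lower at 24 h. Of 9 further mTOR complex partners, limma called 0 at either time (1 at 6 h and 3 at 24 h at an unadjusted p under 0.05), with median log2 fold changes of 0.06 and 0.03. In the TSC and Rheb group, Rhebl1, a Rheb-like GTPase gene, rose by 0.49 at 6 h (limma adjusted p = 0.001152) and 0.40 at 24 h (limma adjusted p = 0.001873), while Rheb itself had -0.15 and -0.08 and was not called. Ddit4l, the paralogue of Ddit4, had -0.48 at 6 h (limma adjusted p = 0.07915) and -0.23 at 24 h. Klf15, a glucocorticoid-responsive transcription factor gene in muscle, had 0.05 and 0.04 at a level close to the array median.

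Of 27 genes of amino acid sensing 25 were measured, and their median log2 fold changes were 0.01 at 6 h and 0.03 at 24 h. Limma called 0 of them at 6 h (3 at an unadjusted p under 0.05). At 24 h it called 3, all higher, where 8.05% of all genes were called higher. These were Lamtor1, the lysosomal anchor of the Ragulator complex (0.43), Castor2, of the arginine-sensing CASTOR family (0.31), and the GATOR1 subunit gene Depdc5 (0.24, limma adjusted p = 0.01347, and adjusted p = 0.05847 with covariates). Rragd, a Rag GTPase gene, had 0.02 and 0.03. Among 10 genes of AMPK, the energy sensor that restrains mTORC1, and of its activating kinase LKB1, Prkaa2, a catalytic subunit, rose by 0.45 at 6 h (limma adjusted p = 0.003348) and 0.29 at 24 h. Prkaa1 (0.21) and Stk11 (0.20) were also called higher at 24 h, and none of these 3 calls at 24 h was kept with covariates. Prkaa1 was dim, under 2 times the array median in every group. Prkaa2 was under 2 times the array median with ethanol, at 1.85 at 6 h and 1.68 at 24 h.

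Among translation genes downstream of mTORC1, 13 of 15 were measured, and Rps6kb1, the S6 kinase gene, was not analysed here. Limma called 0 at 6 h (3 at an unadjusted p under 0.05), and 3 higher and 1 lower at 24 h. Eif4ebp2, a paralogue of Eif4ebp1, averaged 654 ± 66.1 with Dex and 403 ± 25.6 with ethanol at 24 h (SD, n = 5 each), with a rise of 0.70 on the log2 scale (SE 0.12, limma adjusted p = 0.0002927). The initiation factor gene Eif4g3 (0.22), the ribosomal protein gene Rps6 (0.22) and the translation inhibitor gene Pdcd4 (-0.19) were called at 24 h, and not with covariates. Of these, Eif4g3 read near the array median in every group. Of 7 genes of lysosome and autophagy control, Atg13 rose at 24 h (0.23, limma adjusted p = 0.02222, and adjusted p = 0.07982 with covariates), and at 6 h limma called 0 (3 at an unadjusted p under 0.05).

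**Figure D5:**
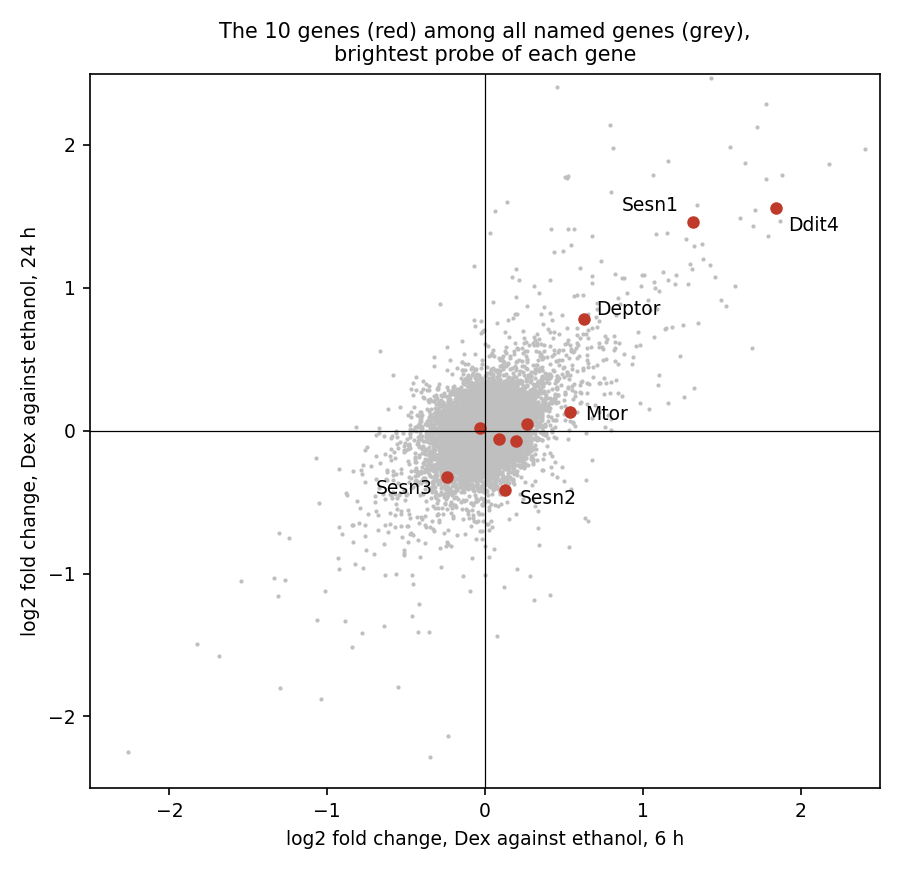
Log2 fold change of Dex over ethanol at 6 h (x axis) and at 24 h (y axis) for the 10 genes, by their brightest probe, on the cloud of all 19057 named genes. Ddit4, Sesn1 and Deptor lie in the upper right, Mtor below the diagonal, Sesn2 below 0 at 24 h, and 10 genes lie beyond the axes, which end at 2.5 in each direction.

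The genes most like the 3 members called at both times were found among the 723 genes called at both, as the smallest distance between the pairs of log2 fold changes at 6 h and 24 h. Next to Ddit4 stood Ccn2, a matricellular protein gene (1.87 and 1.47, distance 0.0932), the kinase gene Sgk1 (1.71 and 1.54, distance 0.133) and Tsc22d3, which encodes GILZ (1.69 and 1.43, distance 0.192). Among the genes near Sesn1 were Trp53inp1, a p53-inducible gene (1.34 and 1.58, distance 0.117), and the clock gene Per1 (1.27 and 1.35, distance 0.125). Deptor lay closest to the phosphorylase kinase subunit gene Phka2 (0.65 and 0.78, distance 0.0284), the mRNA decay factor gene Zfp36 (0.65 and 0.82, distance 0.0467) and Rilpl1 (0.58 and 0.72, distance 0.0743).

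Markers of other cell states moved with Dex in part. In bulk RNA, fewer cells of a type and less RNA per cell cannot be told apart. The 3 fibroblast markers summed to between 819 and 978 with Dex and between 656 and 698 with ethanol at 6 h, and to between 532 and 629 with Dex and between 392 and 486 with ethanol at 24 h. Thy1 and Dpt stayed near the array median, so these sums mostly followed Pdgfra, a fibroblast receptor gene. Pdgfra rose by 0.59 and 0.60 on the log2 scale, and neither Thy1 nor Dpt was called at 6 h. Thy1 (0.21) and Dpt (-0.30) were called at 24 h, and not with covariates. Of the 2 cycling markers measured, Cdk1 rose by 0.43 at 24 h and Top2a had -0.19 (limma adjusted p = 0.0612), and they summed to between 616 and 799 with Dex and between 509 and 635 with ethanol. At 6 h the cycling sums overlapped, between 655 and 792 with Dex and between 718 and 823 with ethanol. The myoblast markers summed to between 657 and 787 with Dex and between 776 and 966 with ethanol at 24 h. At 6 h these sums ran from 1229 to 1333 with Dex and from 1317 to 1570 with ethanol. Pax7 and Myf5 stayed near the array median, so the myoblast sums mostly followed Myod1. Myf5 was called at 6 h (0.33) and Myod1 at 24 h (-0.27), neither with covariates. Of the myotube markers, Myog had -0.32 and Ckm 0.30 at 24 h, both called. The 3 adipocyte markers were dim and none was called. The part of these markers' cells in the values of the 10 genes was not tested.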

How the data were processed

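Illumina mouseWG-6 bead arrays measured RNA of 18 C2C12 myotube samples. The deposited values are linear intensities, 1 column per sample, made by the authors with lumi per the submitters' processing notes; version, background correction and normalization: not given in the sources used here. For the authors' own tests, not used here, the design text names limma. Samples were grouped by title. Intensities were turned into log2 values with a pseudocount of 0. One limma 3.58.1 model (lmFit, eBayes, R 4.3.3) with a mean for each of 4 groups was fitted over all 45281 probes, with Benjamini-Hochberg adjustment over them, for Dex against ethanol at each time and the difference between times. The model was tested on simulated data with independent noise in every probe and array, so that test does not cover arrays that vary together. No detection p-values were used, so which probes lay above background is unknown, and arrays limit the precision by their number. Of the probes, 34885 had 1 symbol, 18 several and 10378 none, and 34807 took their symbol through the gene ID, whether or not it changed. A gene is represented by its brightest probe over all arrays, and every probe of the 10 genes is reported. Of other lists, the text names up to 4 called genes with the smallest p, and always Klf15, Ddit4l, Rheb, Rps6kb1 and Rragd; markers that were called are named too. Up to 3 genes most like a member are named, and the nearest to Sesn1 is not reported here. The genes and lists were chosen with earlier results of these data known. Alternatives were quantile normalization, normexp (offset 16), a pseudocount of 32, a level filter, each time alone, array weights, a trended robust prior, covariates, a replicate block, each array left out, both 24 h arrays numbered 1 left out, and 2 gene-level summaries. No correlation within a group between arrays was below 0.992, and no arrays held the same values.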

Additional observations from a re-analysis of the deposited data

Results flagged for a closer look

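In 5 of 112 pairs of probe and group (4.46%), 1 array stood far from the others by Dixon's ratio of gap to range on log2 intensities, where chance gives about 1 in 20. Eif4ebp1 had Dex array 1 at 24 h as its lowest (5183, nearest 7172, ratio 0.8248). Sesn2 ILMN_2948945 had the same array as its lowest (85.7, nearest 102, ratio 0.7324), and Sesn3 ILMN_2622997 had it as its highest (99.9, nearest 87.5, ratio 0.7105). Rptor ILMN_1250017 had ethanol array 1 at 6 h as its highest (3572, nearest 3161, ratio 0.8409). Sesn3 ILMN_2564767 had ethanol array 4 at 6 h as its lowest (80.9, nearest 92.1, ratio 0.8892).

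The Dex effect differed between times, by the interaction in limma, for Mtor ILMN_2756460 (24 h minus 6 h, -0.408 on the log2 scale) and for Sesn2 ILMN_2948945 (-0.539). Neither difference passed the threshold with covariates.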

How the results depend on the processing

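Under the alternatives, 2326 values of member probes kept their side of the threshold, 22 lost the call and 15 gained one. The sign changed in 66 values, none of them called with or without the alternative. Ddit4, the 3 Sesn1 probes, both Deptor probes and, at 6 h, Mtor ILMN_2756460 were called under every alternative run. The count of called member probes ran from 7 to 8 at 6 h and from 8 to 9 at 24 h as each array was left out in turn. For the difference between times, 2 member probes were called, and leaving out each array gave from 1 to 3. It was 1 with a pseudocount of 32, with the replicate block and without both 24 h arrays numbered 1. It was also 1 with normexp, but that was Mtor ILMN_1257068 (0.77, adjusted p = 0.04976), while Mtor ILMN_2756460 (adjusted p = 0.05393) and Sesn2 ILMN_2948945 (adjusted p = 0.07995) were not called. It was 0 with covariates (6 at an unadjusted p under 0.05). By gene it was 2, and 0 for the mean of a gene's probes (1 at an unadjusted p under 0.05). Over all probes, 2836 were called at 6 h, against 1431 with each time fitted alone, 1741 with array weights and 1378 with covariates. At 24 h 5726 were called, against 11329 with array weights and 2842 with covariates. For the difference between times 1675 were called, against 1090 with normexp, 371 with covariates and 904 with the replicate block. Deviations from the group means were correlated between same-numbered Dex and ethanol arrays over 22641 probes. The values ran from 0.00456 to 0.297 at 6 h and from -0.950 to -0.196 at 24 h. The strongest, -0.950, was between the 24 h arrays numbered 1. Whether same-numbered samples share an origin cannot be told from these values. With the replicate block Tsc2 ILMN_1214823 was called at 6 h (adjusted p = 0.03621) and the difference between times for Sesn2 ILMN_2948945 was not (adjusted p = 0.06555), and no other member call changed. That difference was called for Mtor ILMN_1257068 without ethanol array 1 or Dex array 1 at 6 h or Dex array 2 at 24 h (from 0.31 to 0.32), beside the normexp value above, and for Tsc2 ILMN_1214823 without ethanol array 1 at 6 h (-0.42). Covariates and single-time fits leave fewer residual degrees of freedom; other causes were not tested. Signal over background limits Sesn2, Sesn3 and Tsc1.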
